A study of Homo sapiens with 6 samples.

Results

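The clustered protocadherins alpha, beta and gamma were followed in HCT-116 cells, a human colorectal carcinoma line. Members were all genes whose symbol began with PCDHA, PCDHB or PCDHG and did not end in P, which left out 5 pseudogenes of the same locus. The rule found 54 of the 60546 gene identifiers in the expression table, namely 16 alpha, 16 beta and 22 gamma members. RNA sequencing was done on 3 libraries of HCT-116-PMSCV-GOLPH3, a stable line made by lentiviral infection with the cDNA of GOLPH3 (Golgi phosphoprotein 3) and puromycin selection, and on 3 libraries of HCT-116-PMSCV-Vector, its stable control line with the empty construct. The comparison asked which genes differed between cells made to overexpress GOLPH3 and their control. All 6 libraries shared the cell line, the colon origin, a genotype given as wild type, and lysis in Trizol. The sample titles carried the numbers P8, P12 and P13 for GOLPH3 and P12, P11 and P13 for Vector, and per the methods the cells came from different generations of each line, so the replicates of a group came from 1 stable line. The number of clones in a line was not given in the sources used here.

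The label was checked first on the GOLPH3 gene. In normalized reads, that is, reads over the size factor of their library, the GOLPH3-labelled libraries stood at 1630, 1272 and 1383 and the Vector-labelled ones at 1968, 1892 and 1472. The first were therefore not higher in GOLPH3, and the groups overlapped (log2 fold change -0.31, SE 0.27, limma with Benjamini-Hochberg adjustment, adjusted p = 0.609; exact two-sided permutation p = 0.2, where 3 against 3 cannot go below 0.1). This check was on RNA only. The paper used western blots of GOLPH3 protein and states that the overexpressing lines were successfully made. All directions below are between libraries as labelled, and GOLPH3 and Vector name those labels. The deposited values held whole reads, with 15708846 to 21900764 reads per library, a range of 1.39-fold.

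Markers of cell types also moved with the groups. Of 13 colon epithelium markers 11 were tested and 2 were called higher at an adjusted p under 0.05 (limma), KRT19 and KRT18. This was 18.2% beside the 5.07% of all genes called, and 10 of the 11 log2 fold changes were above 0. The list had a summed level of 62967 to 134557 normalized reads in GOLPH3 against 30103 to 41240 in Vector. Most of that sum in every library was KRT8, KRT18 and KRT19, so it says little about the other markers. CDX2 was the 1 below 0 (-0.52, with overlapping groups). CDH17, GPA33, LGALS4, VIL1 and CDX1 had at most 9.66 normalized reads in any library. KRT20 was at 0 in every library. Of 12 mesenchyme markers 11 were tested and 5 (45.5%) were called lower, VIM, CDH2, ZEB1, ZEB2 and SPARC. The median log2 fold change was -2.18, with 4 of the 11 above 0. Among these, COL1A1 (0.91) and THY1 (1.57) were higher in every GOLPH3-labelled library than in any Vector-labelled library and were not called. The list had sums of 3224 to 5628 against 5473 to 10702, and none of its genes was at 0 in every library. Of 12 neuron markers 9 were tested and 2 (22.2%) were called lower, NCAM1 and GAP43. However, 5 of the 9 log2 fold changes were above 0, with a median of 0.21. The sums of the neuron list were 1173 to 1449 against 970 to 1255, and ELAVL4 was at 0 in every library. ZEB2 was at 0 in all 3 GOLPH3-labelled libraries and at 482, 191 and 431 normalized reads in Vector. In the paper's western blots, GOLPH3-overexpressing cells had more N-cadherin and vimentin protein and less E-cadherin. The RNA as labelled went the other way, with CDH2 and VIM lower and CDH1 at 1.13 (adjusted p = 0.0578, limma, not called). The part of the marker differences between the groups in any result below was not tested.

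Clustered protocadherins are cadherin-like adhesion molecules of the cell surface. They are best known from the brain, where each neuron transcribes its own small set of them, the molecules bind copies of themselves on the facing membrane, and this lets a neuron tell its own branches from those of others. Each alpha or gamma gene has its own promoter and its own large first exon, which encodes the ectodomain, the transmembrane segment and the start of the cytoplasmic tail. That exon is spliced to a few constant exons shared by the whole cluster, while a beta gene is a single exon. The binding protein CTCF and cohesin loop a chosen promoter to distant enhancers, and promoters that are not chosen are held silent with DNA methylation. In many carcinomas, colorectal ones included, parts of the locus are known to carry promoter methylation.

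The 54 members lay on the plus strand of chromosome 5 (GRCh38, GENCODE 29). The alpha cluster lay at chr5:140786136-141012347, the beta cluster at chr5:141051135-141249365 and the gamma cluster at chr5:141330571-141512981, a span of 726846 bases from first to last. All protein-coding alpha members shared 2866 exonic bases in 3 blocks and all protein-coding gamma members shared 2181 in 3 blocks, while beta members shared none. Reads in those blocks name a cluster but not a member. The first constant exons of alpha and gamma are shown because they mark the point where a variable exon ends and gene identity is lost. Both are 59 bases long. Capitals mark the 39 bases (66.1%) that the alpha and gamma exon have in common at the same position.

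alpha constant exon, chr5:140978949-140979007: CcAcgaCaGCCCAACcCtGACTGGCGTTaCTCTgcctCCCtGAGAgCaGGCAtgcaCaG
gamma constant exon, chr5:141494807-141494865: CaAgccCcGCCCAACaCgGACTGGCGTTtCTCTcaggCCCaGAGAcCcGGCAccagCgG

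The second constant exons, 89 bases each, had 29 identical positions (32.6%). How reads in constant exons were counted was not given in the sources used here. However, 7 of the 16 alpha members had no read in any library, so reads lying wholly inside the alpha constant exons were not given to every alpha member. Members also had stretches in common outside the constant exons, either through similar sequence or through annotated exons that overlap. The median share of a member's 50-base stretches found in another member, with the constant exons left out, was 10.8% in alpha, 13.5% in beta and 5.69% in gamma. This share reached 58.0% in PCDHGB4, 45.7% in PCDHB8 and 36.9% in PCDHGA8, whose counts are therefore uncertain. PCDHGB4 and PCDHGA8 each had 4447 exonic bases in common with other members, more than the 2181 of the gamma constant blocks. Part of their share is thus the same bases annotated to more than 1 gene. The share was 100% in PCDHA14, which is annotated as a transcribed pseudogene lying inside the exons of PCDHA10 and had no base of its own. Of the 54 members 22 overlapped an annotated gene that is not itself a member, 8 in alpha, 13 in beta and 1 in gamma. Among those described below these were PCDHA3, PCDHA10, PCDHAC2, PCDHB9, PCDHB11 and PCDHB14, and without a stated strand setting reads of such pairs cannot be told apart.

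Promoters were read from RefSeq (GRCh38.p14) as windows of 300 bases, from 250 before to 50 after an annotated start. A window was found for 47 of the 54 members. The letters CGCT are the core of an element known from most clustered protocadherin promoters. They occurred on either strand in 46 of the 47 members (97.9%) and in 71.9% of all 27305 genes with a window. Since most genes hold these letters somewhere in the window, a match does not show that the element itself is present. Longer words differed between the clusters. The 10 letters held by the most alpha members, ATGATGTCGC, were in 8 of 13 alpha members and in 0.0403% of all genes. The most common beta word, GGTGGCGCTG, which holds CGCT, was in 12 of 14 beta members and in 0.341% of all genes. The most common gamma word, GCGCCGCTGT, also holds CGCT and was in 9 of 20 gamma members and in 0.165% of all genes. None of the 3 words occurred in a member of another cluster. The promoters of 6 members are given below because these include the highest alpha and gamma members, a low alpha member, the second highest beta member, and PCDHGA11, the member with the largest difference between groups, with PCDHGB7, which lies between it and PCDHGA10. Capitals mark CGCT, its reverse complement AGCG, and the cluster words on either strand.

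PCDHAC2, chr5:140966226-140966525: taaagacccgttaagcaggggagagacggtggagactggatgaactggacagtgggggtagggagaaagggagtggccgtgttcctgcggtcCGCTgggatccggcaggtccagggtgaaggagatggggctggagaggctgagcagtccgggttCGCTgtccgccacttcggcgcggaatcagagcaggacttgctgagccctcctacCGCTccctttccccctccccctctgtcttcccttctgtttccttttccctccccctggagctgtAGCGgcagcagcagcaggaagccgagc
PCDHA10, chr5:140855647-140855946: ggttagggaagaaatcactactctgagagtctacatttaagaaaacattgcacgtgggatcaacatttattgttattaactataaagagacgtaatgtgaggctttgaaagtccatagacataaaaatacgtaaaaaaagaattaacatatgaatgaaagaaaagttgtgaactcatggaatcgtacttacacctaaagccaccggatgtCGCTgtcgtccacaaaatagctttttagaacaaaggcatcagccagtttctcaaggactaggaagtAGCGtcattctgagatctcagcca
PCDHB13, chr5:141213669-141213968: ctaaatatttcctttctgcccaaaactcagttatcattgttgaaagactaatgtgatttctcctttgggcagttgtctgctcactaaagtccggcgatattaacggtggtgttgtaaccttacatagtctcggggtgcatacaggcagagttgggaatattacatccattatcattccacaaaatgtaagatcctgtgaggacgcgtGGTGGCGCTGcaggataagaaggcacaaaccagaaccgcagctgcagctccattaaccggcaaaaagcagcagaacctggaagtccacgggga
PCDHGA10, chr5:141412737-141413036: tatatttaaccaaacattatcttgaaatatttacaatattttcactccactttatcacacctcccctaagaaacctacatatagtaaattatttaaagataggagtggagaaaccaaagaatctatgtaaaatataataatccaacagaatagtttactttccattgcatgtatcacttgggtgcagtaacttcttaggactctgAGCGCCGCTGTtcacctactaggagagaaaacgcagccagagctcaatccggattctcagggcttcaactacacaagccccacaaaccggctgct
PCDHGB7, chr5:141417427-141417726: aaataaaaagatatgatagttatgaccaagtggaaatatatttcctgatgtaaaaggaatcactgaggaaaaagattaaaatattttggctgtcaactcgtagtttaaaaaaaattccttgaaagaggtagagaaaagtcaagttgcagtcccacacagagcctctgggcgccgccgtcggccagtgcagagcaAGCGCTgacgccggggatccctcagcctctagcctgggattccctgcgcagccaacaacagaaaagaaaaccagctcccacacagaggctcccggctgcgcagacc
PCDHGA11, chr5:141420801-141421100: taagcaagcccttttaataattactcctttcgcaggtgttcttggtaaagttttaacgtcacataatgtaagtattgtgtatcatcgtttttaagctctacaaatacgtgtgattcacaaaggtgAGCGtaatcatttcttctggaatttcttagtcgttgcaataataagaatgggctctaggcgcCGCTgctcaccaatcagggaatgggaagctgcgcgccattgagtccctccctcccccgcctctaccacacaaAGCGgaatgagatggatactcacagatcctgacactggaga

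PCDHB13 and PCDHGA10 held the word of their cluster, and the other 4 did not. Those 4 held CGCT or AGCG alone. The number of CG dinucleotides, the sites of DNA methylation, also differed between these windows. It was 5 in PCDHGA10, 8 in PCDHA10, 10 in PCDHB13, 11 in PCDHGB7, 12 in PCDHGA11 and 15 in PCDHAC2. PCDHAC1 had the most of any member, 27, and the median was 7 over members and 14 over all genes. These counts describe letters only, and no methylation was measured.

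Few members were expressed in HCT-116 cells (the plot of reads per member and library). All 54 members together had 178 to 289 reads per library. No library had a read for more than 34 members, and the library with the fewest had reads for 15. Of the 54 members 8 had no read in any library and 35 had at most 3 reads in every library. At 3 reads, the floor used here, a member had 2.47 to 3.29 normalized reads depending on the library, so its absence could not be told from a low level at this depth. Only 3 members had more than 3 reads in every library, namely PCDHAC1, PCDHAC2 and PCDHGA10. With PCDHGA11, these took 68.0% to 88.5% of the reads of all members.

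**Figure D1:**
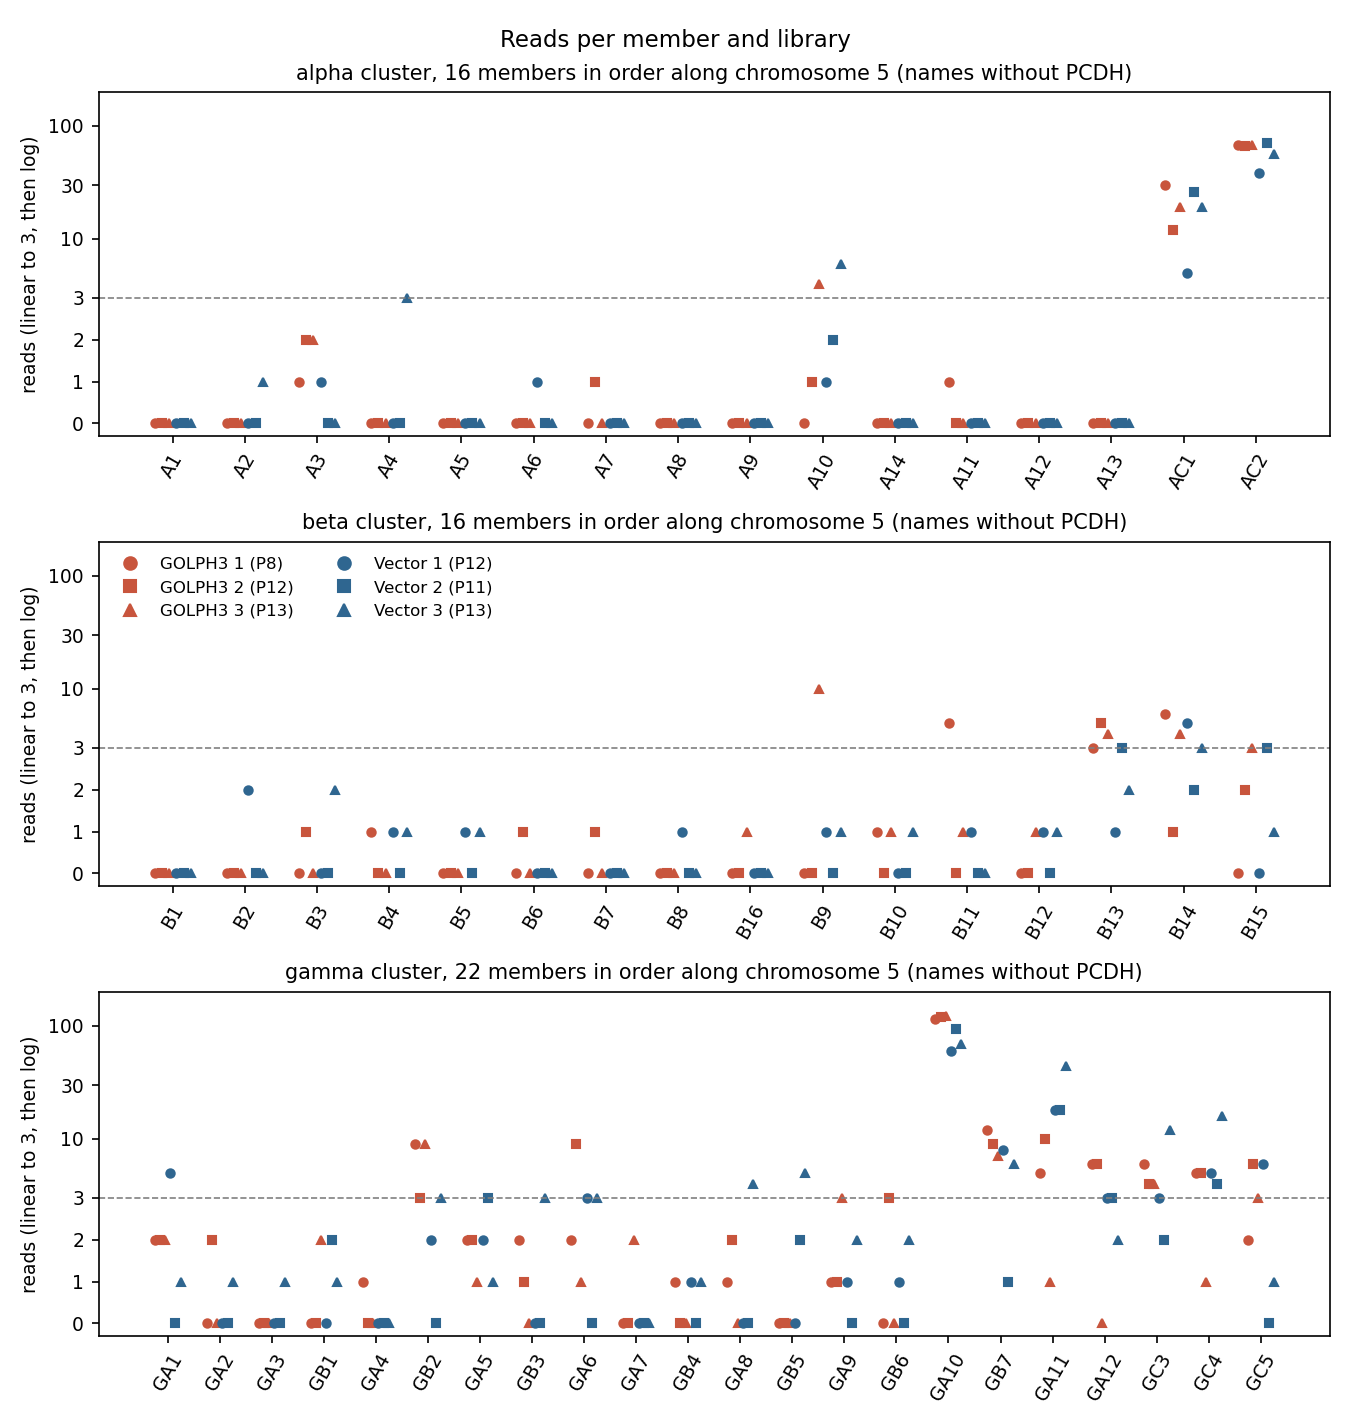
Reads (vertical axis, linear up to 3 and logarithmic above) of each of the 54 members in each of the 6 libraries, with members in order along chromosome 5 and the dashed line at 3 reads. PCDHAC1, PCDHAC2 and PCDHGA10 stand above the line in every library, and 35 members stay on or under it in all of them.

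The levels were ordered per kilobase of exon held by no other gene, so that members of different length could be set side by side. PCDHGA10 had the highest level, 21.6 ± 6.83 normalized reads per kilobase (SD, n = 6 libraries of both groups), followed by PCDHAC2 with 19.1 ± 4.81. These 2 members overlapped, with ranges of 13.3 to 29.4 and 12.2 to 24.0. PCDHAC1 came next with 4.59 ± 2.57, and its highest library, 7.90, lay under the lowest of PCDHAC2. PCDHGA11 followed with 4.16 ± 3.66 and PCDHGB7 with 2.53 ± 1.39, and neither differed from its neighbours in the order beyond its spread. The place of PCDHGA11 differed between the groups. It ranked 3 in Vector with 6.97 ± 2.98 (SD, n = 3), above PCDHAC1 with 4.08 ± 2.86, and 8 in GOLPH3 with 1.35 ± 0.995, below PCDHGB7 with 3.33 ± 1.13 and close to PCDHGC3 with 1.44 ± 0.495. Further down over the 6 libraries were PCDHGC4 at 2.02, PCDHGB2 at 1.70 and PCDHGC3 at 1.52. The highest beta member, PCDHB14, reached 0.767 ± 0.447.

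For the comparison of the groups, 22 of the 54 members reached 1 normalized read in 3 or more libraries and were tested, 4 of them alpha, 4 beta and 14 gamma. None of the 22 was called by limma at an adjusted p under 0.05, while 5.07% of the 26536 genes tested were called (1346 genes, 253 higher and 1093 lower in GOLPH3). At an unadjusted p under 0.05 there were 2 members, PCDHGA11 and PCDHGB2, with 17.6% of all genes there. DESeq2 called 1 of the 14 members it tested and edgeR 0 of 4, as described with PCDHGA11. In normalized reads the groups did not overlap in 2 members, PCDHA3 (by library scaling only) and PCDHGA11, against 22.0% of all genes tested. Of the 22 members 16 had a mean under 5 normalized reads, a level at which 1.13% of the 7065 genes tested were called. Of the 22 log2 fold changes 16 were above 0 and 6 below, with a median of 0.36. Over all genes tested 50.9% were above 0 and the median was 0.02, with no matching for level. Per cluster the median was 0.38 in alpha, 0.46 in beta and 0.25 in gamma. The SE of a single member ran from 0.40 to 0.81.

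**Figure D2:**
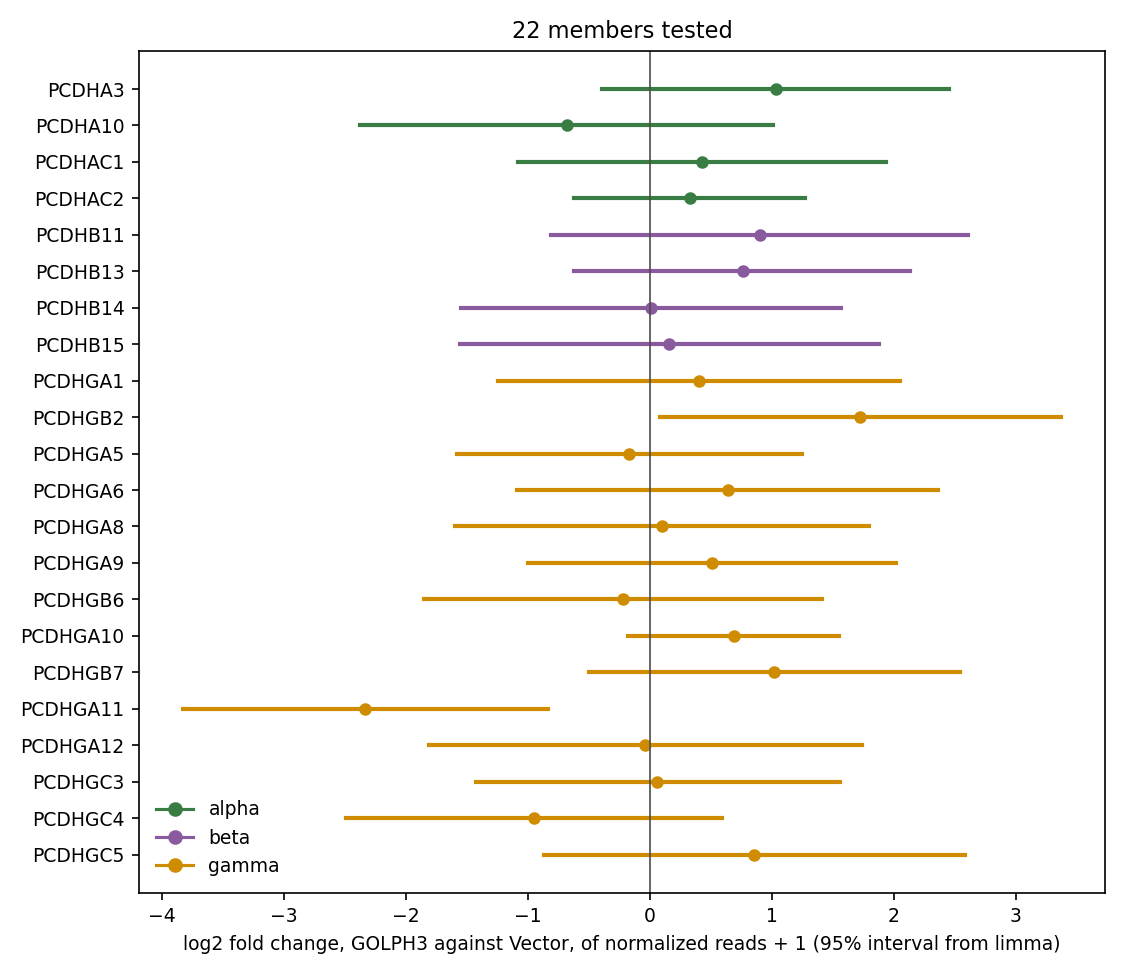
Log2 fold change of GOLPH3 against Vector on normalized reads + 1 (horizontal axis) of the 22 members tested, with 95% intervals from limma and colours for the cluster. The intervals of PCDHGA11 and PCDHGB2 leave out 0 before adjustment, and all others include it.

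The expression of the alpha cluster came almost wholly from its C-type members. PCDHAC1 and PCDHAC2 are the last variable exons before the constant exons, and in the brain C-type members are transcribed by most neurons and are not chosen at random. PCDHAC2 had 73.0, 55.2 and 72.6 normalized reads in the GOLPH3-labelled libraries and 39.1, 76.7 and 48.9 in the Vector-labelled libraries. The second Vector-labelled library was the highest of all 6 and the first was the lowest, so the groups overlapped (log2 fold change 0.33, SE 0.43, adjusted p = 0.754, limma). PCDHAC1 had 32.2, 9.90 and 20.3 normalized reads in GOLPH3 and 5.15, 28.5 and 16.3 in Vector. Its spread within each group covered most of the range of both groups (log2 fold change 0.43, SE 0.69, adjusted p = 0.799, limma). The pair took 88.4% to 98.0% of alpha reads in every library, and PCDHAC2 alone took 66.3% to 82.6%. PCDHAC2 had between 2.27 and 7.60 reads for each PCDHAC1 read, with overlapping groups.

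The other 14 alpha members were at or near 0. PCDHA10 was the only one with more than 3 reads in any library, with 0, 0.825 and 4.27 normalized reads in GOLPH3 and 1.03, 2.19 and 5.15 in Vector (log2 fold change -0.68, adjusted p = 0.708, limma). PCDHA3 had 1.07, 1.65 and 2.13 normalized reads in GOLPH3 and 1.03, 0 and 0 in Vector. Its groups did not overlap in normalized reads, but the first GOLPH3-labelled and the first Vector-labelled library each had 1 read. Their values, 1.07 and 1.03, differed only by library scaling. The member had at most 2 reads in any library and no fold is given. The remaining alpha members that were detected had 1 library with reads each.

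The beta cluster had the fewest reads of the 3. It took 3.40% to 9.03% of member reads, and none of its 16 members had more than 3 reads in every library. PCDHB14 had 6.44, 0.825 and 4.27 normalized reads in GOLPH3 and 5.15, 2.19 and 2.57 in Vector, a difference of 0.01 on the log2 scale (adjusted p = 0.998, limma). PCDHB13 had 3.22, 4.12 and 4.27 against 1.03, 3.29 and 1.72, with the groups overlapping through the second Vector-labelled library (log2 fold change 0.76, adjusted p = 0.587, limma). Single libraries stood apart in PCDHB9 and PCDHB11. PCDHB9 had 10.7 normalized reads in the third GOLPH3-labelled library, 0 in the other two, and 1.03, 0 and 0.858 in Vector, and was not tested because it reached 1 normalized read in only 2 libraries. PCDHB11 had 5.37, 0 and 1.07 in GOLPH3 and 1.03, 0 and 0 in Vector.

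The gamma cluster held 54.9% to 66.3% of member reads, and each of its 22 members had a read in at least 1 library. PCDHGA10 led it. This member had 124.5, 98.1 and 131.3 normalized reads in the GOLPH3-labelled libraries and 61.8, 103.0 and 59.2 in the Vector-labelled libraries. The second Vector-labelled library, at 103.0, lay above the second GOLPH3-labelled library, and the other Vector-labelled libraries were the lowest of the 6. The difference was 0.69 on the log2 scale and did not pass the test (SE 0.40, adjusted p = 0.411, limma).

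PCDHGA11, whose first exon is the second variable exon after that of PCDHGA10, was lower in GOLPH3. It had 5.37, 8.25 and 1.07 normalized reads in GOLPH3 and 18.5, 19.7 and 37.8 in Vector. Every GOLPH3-labelled library was below every Vector-labelled library. The log2 fold change was -2.34 (SE 0.69, unadjusted p = 0.00532, limma), and after adjustment over all genes tested it missed the threshold of 0.05 (adjusted p = 0.0790). In reads, 16 in GOLPH3 stood against 80 in Vector, a Vector to GOLPH3 ratio of 5.05 after scaling (95% exact interval 2.93 to 9.26, counting error only). PCDHGB7, the gene between PCDHGA10 and PCDHGA11, had 12.9, 7.42 and 7.47 against 8.23, 1.10 and 5.15 normalized reads (log2 fold change 1.02, adjusted p = 0.498, limma).

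The call for PCDHGA11 depended on the fit. It was called by DESeq2 on the whole reads (log2 fold change -2.35, adjusted p = 0.0465), where 8.68% of all genes tested were called, and not by edgeR (-2.30, adjusted p = 0.0832; 6.58% of all genes called). It was also called with the P number as a block (-2.65, adjusted p = 0.00321, limma; 22.9% of all genes called). There the P8 and P11 libraries, each alone at its number, carried no weight, so the difference rested on the pairs at P12 and P13. The adjusted p of that fit leaned mainly on the variance that limma shares between genes. A fit added after the data were seen set the libraries in 3 pairs by P number, with the remaining 2 paired together. It also called PCDHGA11 (adjusted p = 0.0289, limma; 20.9% called). The P number block also called PCDHGA10 (0.90, adjusted p = 0.0416, limma). With the replicate number as a block, 4.07% of all genes and none of the members were called. Within the pair of libraries at P12 the PCDHGA11 difference was -1.08. Within the pair at P13 it was -4.23, where the GOLPH3-labelled library had 1 read of this gene. Leaving out 1 library at a time gave -2.79 to -1.71. What the P number stands for was not given in the labels.

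**Figure D3:**
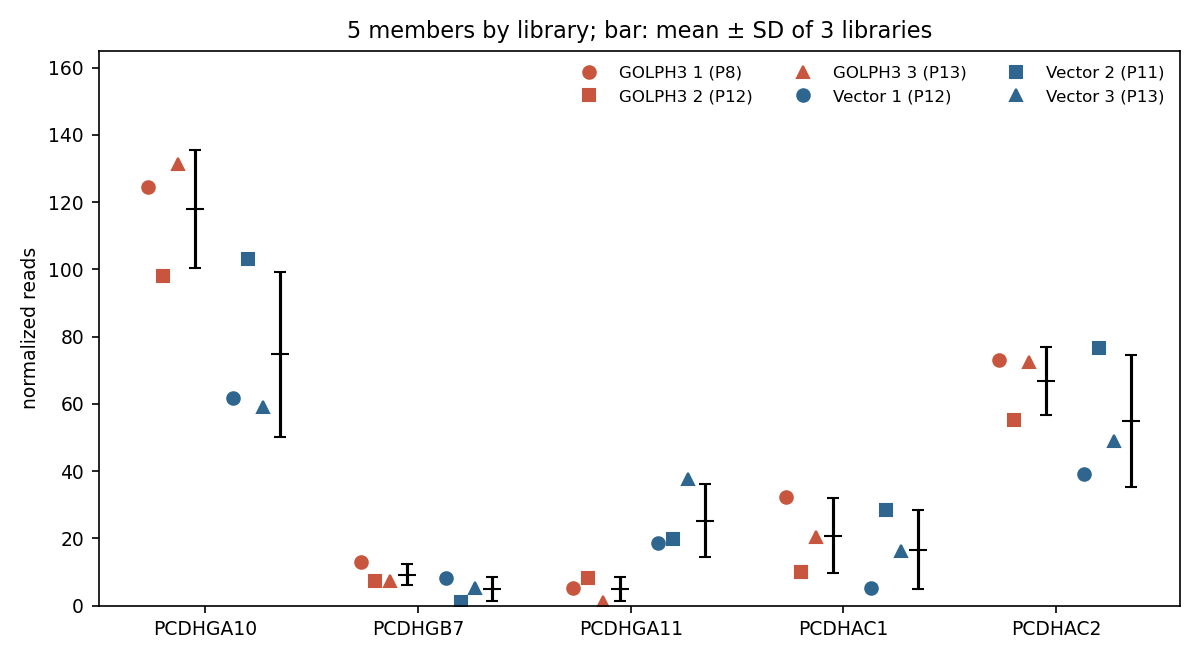
Normalized reads (vertical axis) of 5 members in each library, with points by group and library and bars for the mean ± SD of 3 libraries. PCDHGA11 lies at 1.07 to 8.25 in GOLPH3 and at 18.5 to 37.8 in Vector, and the groups overlap for PCDHGA10, PCDHAC1 and PCDHAC2.

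The share of each gene in the gamma reads shows the same data within each library, where library scaling has no part. PCDHGA11 took 2.89%, 5.43% and 0.629% of gamma reads in GOLPH3 and 15.3%, 14.0% and 24.7% in Vector. The 95% exact binomial interval of the second GOLPH3-labelled library, 2.64% to 9.77%, overlapped that of the second Vector-labelled library, 8.48% to 21.2%, and reached into that of the first, 9.30% to 23.0%. PCDHGA10 took 67.1%, 64.7% and 77.4% in GOLPH3 and 50.8%, 72.9% and 38.8% in Vector, with overlapping groups. For each PCDHGA11 read there were 23.2, 11.9 and 123.0 reads of PCDHGA10 in GOLPH3 and 3.33, 5.22 and 1.57 in Vector. This ratio was chosen after its values were seen and is a description only. In bulk RNA, fewer cells with a transcript and less transcript per cell cannot be told apart, so these shares do not say whether single cells hold 1 member or several.

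**Figure D4:**
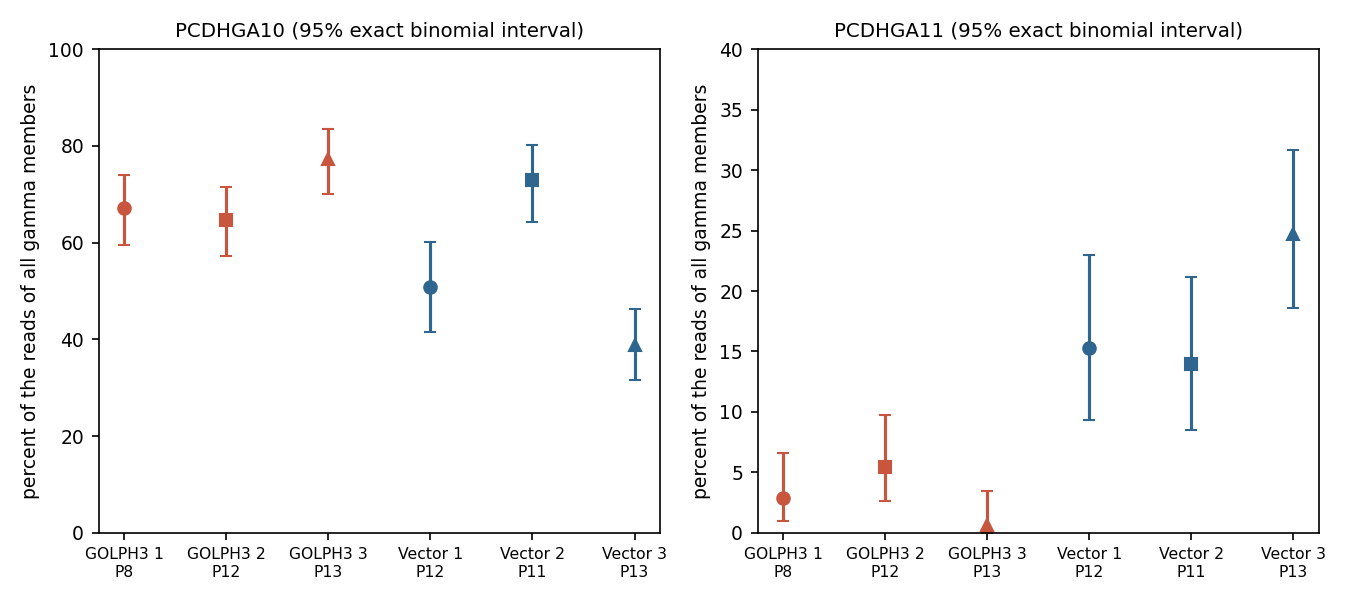
Percent of the reads of the 22 gamma members that fell on PCDHGA10 (left, axis to 100) and on PCDHGA11 (right, axis to 40) in each library, with 95% exact binomial intervals that cover counting error only. PCDHGA11 is at 0.629% to 5.43% in the GOLPH3-labelled libraries and at 14.0% to 24.7% in the Vector-labelled libraries.

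PCDHGB2, an early gamma exon, had 9.66, 2.47 and 9.61 normalized reads in GOLPH3 and 2.06, 0 and 2.57 in Vector. Its Vector-labelled libraries were at or under the floor, and the second GOLPH3-labelled library lay within their range. The ratio of summed reads, 21 against 5, was 4.16 after scaling (95% exact interval 1.53 to 14.1, counting error only and not the spread between libraries). The adjusted p was 0.260 (limma). The 3 C-type gamma members did not follow one direction. PCDHGC3 had 6.44, 3.30 and 4.27 against 3.09, 2.19 and 10.3 normalized reads (log2 fold change 0.06, adjusted p = 0.977, limma). PCDHGC4 had 5.37, 4.12 and 1.07 against 5.15, 4.38 and 13.7 (log2 fold change -0.95, adjusted p = 0.536, limma), and PCDHGC5 had 2.15, 4.95 and 3.20 against 6.18, 0 and 0.858 (log2 fold change 0.85, adjusted p = 0.633, limma). The third Vector-labelled library was the highest of the 6 in PCDHGC3 and PCDHGC4, as it was in PCDHGA11.

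The summed level of each cluster overlapped between the groups. Alpha members summed to 91.7 ± 20.5 normalized reads in GOLPH3 and 76.2 ± 30.1 in Vector (SD, n = 3). Beta members summed to 17.6 ± 8.82 and 11.4 ± 2.83. Gamma members summed to 185.7, 151.7 and 169.7 in GOLPH3 and 121.5, 141.3 and 152.8 in Vector, overlapping by the lowest GOLPH3 and the highest Vector-labelled library. The log2 ratio of the means was 0.27 in alpha, 0.62 in beta and 0.29 in gamma. Within the pair at P12 the beta ratio was -0.67 and within the pair at P13 it was 1.26.

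Genes that act on or with the clustered protocadherins were taken as lists. Of 26 regulators of the locus (CTCF, cohesin and its loaders, and silencing factors) 25 were tested, none rose and 1 fell, a share of 4.0% beside the 5.07% of all genes called, and the median log2 fold change was -0.34. The 1 that fell was SMC1A, a core cohesin subunit, with 3298, 2772 and 2828 normalized reads in GOLPH3 and 5229, 5956 and 7540 in Vector (log2 fold change -1.06, SE 0.27, adjusted p = 0.0449, limma). The cohesin subunits STAG2 (-0.93, adjusted p = 0.142, limma) and SMC3 (-0.91, adjusted p = 0.220, limma) were below 0 and did not pass, and RAD21 had -0.20 with overlapping groups. CTCF had 1652, 1581 and 1547 against 1855, 1867 and 1788 normalized reads, with GOLPH3 below Vector in every library and an adjusted p of 0.732 (limma). SMCHD1, a silencing factor known to act on the locus, had -0.43 (adjusted p = 0.616, limma), and EHMT2 was listed at 0.

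Of 23 binding partners, proteases and effectors all were tested, none rose and 1 fell, a share of 4.35% beside 5.07% of all genes, and the median was -0.11. WASF3, a member of the WAVE complex that drives actin branching and to which protocadherin tails can bind, had 84.8, 46.2 and 57.6 normalized reads in GOLPH3 and 131, 206 and 249 in Vector (log2 fold change -1.61, adjusted p = 0.0434, limma). PTK2B, a kinase that binds the constant tails, had 0.86 (adjusted p = 0.187, limma), and MARCKS, a membrane protein downstream of gamma protocadherins in neurons, had -0.95 (adjusted p = 0.154, limma). Of 12 neighbouring genes 10 were tested and none was called, beside 5.07% of all genes, with a median of 0.28. TAF7, a general transcription factor subunit that lies between beta and gamma, had 962 to 1567 reads in every library (log2 fold change -0.28, adjusted p = 0.650, limma), and DIAPH1, beyond gamma, had 0.10 (adjusted p = 0.893, limma). FCHSD1 (1.08, adjusted p = 0.0843, limma) and ARAP3 (0.89, adjusted p = 0.107, limma), further beyond gamma, were higher in every GOLPH3-labelled library than in any Vector-labelled library and did not pass the test, and WDR55, before alpha, had 0.56 (adjusted p = 0.360, limma).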

How the data were processed

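Total RNA of 6 HCT-116 libraries was sequenced. According to the submitters' processing notes, fastp 0.20.0, HISAT2 2.1.0, Cufflinks, featureCounts 1.6.1 and DESeq2 were used with GRCh38. The annotation release and the counting of reads shared by genes were not given in the sources used here. The authors deposited 1 table whose values are a normalized signal, each library's read counts over its size factor. Whole reads were recovered from them for 100.0% of values (tolerance 0.01). Where an identifier had a second row (44 rows), both were summed.

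The members and all lists were chosen with earlier results of these data known. GOLPH3 and Vector were compared with limma 3.58.1 (R 4.3.3, trend) on log2(value + 1), which understates changes of low genes, over genes that reached a value of 1 in 3 or more of the 6 libraries, two-sided and adjusted over all genes tested. Since the values were normalized, limma was used in place of a count model. edgeR 4.0.16 and DESeq2 1.42.0 on the recovered reads were alternatives. The fits were tested on simulated data with 200 genes changed by 2 on the log2 scale in either direction. Of these limma found 160 with 8 false calls, edgeR 170 with 8 and DESeq2 183 with 31. The changed genes were drawn from levels above those of most members, so the simulation does not show how well changes of low members are found. P-values measure the spread between libraries of different generations of 1 line per group, which may be technical. Intervals of shares and of read ratios cover counting error only. Those of log2 fold changes come from limma and measure the spread between libraries.

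Members named were those called, the 5 C-type members, the 3 highest per kilobase in each cluster, and the largest rise and fall in each cluster; of each list, the 3 genes with the smallest p, and CTCF, RAD21, SMCHD1, TAF7 and DIAPH1. Members named beyond this rule were chosen after their values were seen. Gene positions and exons came from GENCODE 29, which held 58367 identifiers (96.4%), and promoters from RefSeq. Protein sequences were not used here.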

Additional observations from a re-analysis of the deposited data

How the results depend on the processing

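No member was called by limma without a block, by edgeR, or by limma without a block with any 1 library left out, where the number of calls was 0 to 0 in all and in each cluster. DESeq2 called 1 member, PCDHGA11, in all and in gamma. The P number as block called 2, PCDHGA10 and PCDHGA11, and the 3 pairs, chosen after seeing the data, called 1, PCDHGA11 (adjusted p = 0.0289, limma). The replicate numbers did not pair the libraries, with correlations of same-numbered deviations of -0.232, -0.151 and 0.259. Set in 3 pairs by P number, the libraries had correlations of 0.256 at P12, 0.259 at P13 and 0.331 for P8 with P11, which share no number. With the replicate block, 0 members were called and PCDHGA11 had an adjusted p of 0.161 (limma). Of 233 values of the 14 named members tested, 210 kept their direction and their side of the threshold, 4 newly passed it and 19 changed sign. The sign changes were in 6 members, and the cause was not tested. PCDHB14 was -0.02 with quantile normalization, -0.09 with a pseudocount of 0.1, -0.17 with the P number as covariate, -0.60 with it as block and -1.75 within P12, and ran from -0.41 to 0.60 with 1 library left out. PCDHGC3 was -0.18 by DESeq2, -0.51 with the P number block and -1.10 within P13, and ran from -0.30 to 0.61. PCDHAC1 ran from -0.19, without the first Vector-labelled library, to 0.94. Within P12, PCDHGC5 was -0.27, PCDHB11 -1.02 and PCDHGB7 -0.13. The summed beta level was -0.67 within P12 and 1.26 within P13. The 5 highest members per kilobase over the 6 libraries were the same 5 in each alternative. Depth limits the rest: 35 of 54 members had at most 3 reads in every library.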

Other observations

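The stretch of chromosome 5 from the first alpha to the last gamma exon held 30 other annotated genes, of which 19 had no read and 25 never passed 3 reads in any library. Antisense transcripts are known to start inside variable exons of the alpha cluster and to take part in the choice of a promoter. Of 13 genes annotated as antisense in this stretch, 11 had no read, and the other two had 6 reads in all, with at most 2 in a library. The strand setting of the counting was not given, so reads of an antisense gene and of the member it overlaps cannot be told apart. The pseudogenes PCDHGB8P and PCDHB18P, left out of the members by their symbols, had 1 to 7 and 0 to 4 reads per library. PCDHGB8P had 1, 7 and 1 reads in GOLPH3 and 4, 2 and 4 in Vector, with overlapping groups. The lincRNA AC005618.1, just before the gamma cluster, had 6, 7 and 7 reads in GOLPH3 and 7, 4 and 2 in Vector. SLC25A2, a mitochondrial carrier gene between beta and gamma, had 0 to 6 reads, and TAF7, whose gene spans it, had 962 to 1567.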
